A study of Mus musculus with 8 samples.

Results

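The proliferation and cell cycle genes described here are 40 mouse genes taken by name: 12 that act in G1, 13 of DNA replication and 15 of mitosis and its preparation. The RefSeq accession of each array probe placed 54 of the 55681 probes on these genes, and 21154 genes could be named in all. Testing required a probe whose signal the scanner software marked as well above background throughout 1 or more groups, and 37 of the 40 members and 14131 genes altogether met this. These 37 were above background in all 16 tumours, and the brightest passing probe stood for each gene.

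RNA came from fragments of 16 MMTV-PyMT mammary tumours, grown as orthotopic pieces in wild-type FVB mice and hybridised as pairs on 8 Agilent arrays of 2 colours, so each tumour was read in 1 channel. MMTV-PyMT mice carry the polyoma virus middle T oncogene under a viral promoter active in mammary epithelium. RANK-Fc is a decoy receptor that binds RANK ligand, and it was injected intraperitoneally at 10 mg/kg, 3 times a week. Passage 2 held 3 tumours with RANK-Fc before and during that passage (prior and current), 3 with the neoadjuvant treatment of the labels (prior), 3 with the adjuvant one (current) and 2 controls. Passage 1 held 3 tumours with RANK-Fc and 2 controls. That prior treatment was given during passage 1 is a reading of the group codes. All groups share the oncogene, the strain and a wild-type host, whose own cells can carry RANK. The 16 tumours have 16 different codes, and the labels do not say whether a code stands for an animal. They also do not say which tumours share an origin. Across the channels 47.5% to 56.5% of spots were well above background. All 12 mammary epithelial markers were above background in every tumour, while 5 of 6 B cell markers were not among the genes tested. In such bulk RNA, fewer cells of a type and less RNA per cell cannot be told apart.

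A cell enters division through G1, where cyclin D with CDK4 or CDK6 and then cyclin E with CDK2 phosphorylate the retinoblastoma protein and free E2F transcription factors. E2F switches on genes of DNA replication, such as the MCM helicase and ribonucleotide reductase. Later, cyclin A and cyclin B with CDK1 drive mitosis, and FOXM1 and B-MYB switch on the mitotic genes through promoter elements that the DREAM repressor complex holds silent in resting cells. In the mammary gland, RANK signalling is known to act downstream of progesterone in epithelial proliferation, and cyclin D1 is a known target of RANK signalling there.

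The promoters of the members carried these elements unequally, and 5 are shown as examples of mitosis and replication genes with them. RefSeq promoters of build GRCm38.p6, from 250 bases before to 50 bases after the gene start, were matched for 32 of the 40 members. Capitals mark the motifs searched on both strands: the E2F site (TTTGGCGC, TTTGCCGC, TTTCGCGC or TTTCCCGC), the cell cycle genes homology region or CHR (TTTGAA or TTCGAA) and the CCAAT box (CCAAT). The mitotic genes are Ccnb2 (chr9:70421505-70421804, minus strand), Cdc20 (chr4:118437294-118437593, minus strand) and Cdk1 (chr10:69352863-69353162, minus strand), and the replication genes are Mcm5 (chr8:75109259-75109558, plus strand) and Mcm6 (chr1:128359656-128359955, minus strand).
Ccnb2: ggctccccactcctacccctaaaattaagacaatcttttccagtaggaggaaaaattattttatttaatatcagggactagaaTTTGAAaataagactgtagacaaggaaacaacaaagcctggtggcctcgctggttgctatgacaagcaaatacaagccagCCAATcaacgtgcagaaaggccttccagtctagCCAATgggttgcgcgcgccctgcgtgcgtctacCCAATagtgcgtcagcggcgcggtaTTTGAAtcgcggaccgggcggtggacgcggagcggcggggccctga
Cdc20: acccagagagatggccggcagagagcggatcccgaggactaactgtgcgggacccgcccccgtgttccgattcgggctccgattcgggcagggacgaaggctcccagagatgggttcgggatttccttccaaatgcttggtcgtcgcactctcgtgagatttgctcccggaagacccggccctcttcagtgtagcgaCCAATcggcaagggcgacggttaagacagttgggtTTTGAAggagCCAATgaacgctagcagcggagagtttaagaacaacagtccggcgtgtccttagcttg
Cdk1: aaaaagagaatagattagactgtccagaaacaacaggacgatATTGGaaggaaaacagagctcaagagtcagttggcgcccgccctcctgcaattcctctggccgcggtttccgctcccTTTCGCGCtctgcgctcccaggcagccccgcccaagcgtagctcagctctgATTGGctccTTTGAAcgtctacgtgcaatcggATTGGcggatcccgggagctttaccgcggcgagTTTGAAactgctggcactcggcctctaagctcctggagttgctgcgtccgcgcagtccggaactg
Mcm5: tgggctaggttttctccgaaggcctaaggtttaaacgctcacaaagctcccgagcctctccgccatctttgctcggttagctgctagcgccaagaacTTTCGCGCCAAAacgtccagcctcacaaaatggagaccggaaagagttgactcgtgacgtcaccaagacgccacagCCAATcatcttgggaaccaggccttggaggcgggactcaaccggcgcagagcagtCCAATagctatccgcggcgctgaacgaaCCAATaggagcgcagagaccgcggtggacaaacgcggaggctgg
Mcm6: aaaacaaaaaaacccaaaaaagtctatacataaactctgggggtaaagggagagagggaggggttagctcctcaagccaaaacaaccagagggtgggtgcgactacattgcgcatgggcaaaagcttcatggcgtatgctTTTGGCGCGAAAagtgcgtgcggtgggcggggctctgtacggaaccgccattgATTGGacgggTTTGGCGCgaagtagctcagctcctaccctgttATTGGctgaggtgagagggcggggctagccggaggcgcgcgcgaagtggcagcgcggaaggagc

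Ccnb2 and Cdc20 have CHR and CCAAT matches and no E2F match, Mcm5 and Mcm6 have E2F and CCAAT matches and no CHR match, and Cdk1 has all 3. In Mcm5 and in Mcm6, 2 of the E2F matches overlap each other on opposite strands. A CHR was matched in 10 of 12 mitosis members (83.3%), 2 of 11 replication members (18.2%) and 0 of 9 G1 members, beside 21.7% of the 27025 genes with a promoter in the table. An E2F site was matched in 6 of 11 replication members (54.5%), 1 of 12 mitosis members (8.33%) and 1 of 9 G1 members (11.1%), beside 2.6% of all. The CCAAT box stood in 11 of 12 mitosis members (91.7%), 8 of 11 replication members (72.7%) and 4 of 9 G1 members (44.4%), beside 41.1% of all. A gene with several promoters counted if any of them matched. Among wider lists, 23 of 34 other mitosis genes (67.6%) had a CHR and 8 of 23 other replication genes (34.8%) an E2F site. These matches describe letters in a window and were not tested. The window is placed by the annotated gene start, which was not checked for any gene, so a misplaced start would miss sites.

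In passage 2, the mean level of the cell cycle transcripts was close in all 4 groups. The mean log2 intensity over the 37 members was 10.65 ± 0.14 (SD, n = 3) with prior and current RANK-Fc, 10.64 ± 0.058 (n = 3) with prior RANK-Fc and 10.65 ± 0.19 (n = 3) with current RANK-Fc, against 10.66 ± 0.28 (n = 2) in passage 2 controls. In passage 1 it was 10.68 ± 0.044 (n = 3) with RANK-Fc, against 10.54 ± 0.007 (n = 2) in controls, and these 2 groups did not overlap. The 4 passage 2 means, from 10.64 to 10.66, thus differed by less than tumours of the same group did. Over all groups the pooled SD between tumours of a group was 0.14.

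**Figure D1:**
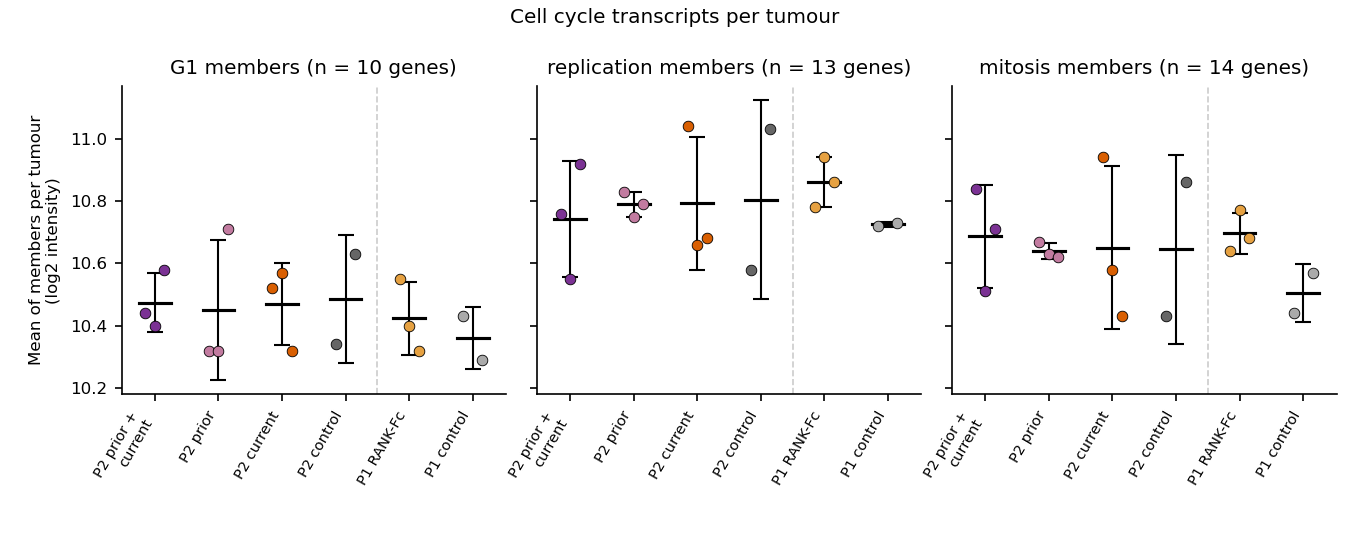
Mean log2 intensity (y axis) of the 10 G1, 13 replication and 14 mitosis members that were tested, with a point for each tumour, a bar for the group mean and whiskers for the SD (n = 3 tumours, or 2 in each control group). P2 is passage 2, P1 is passage 1, and in all 3 panels the tumours of every passage 2 treatment group overlap their 2 controls.

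The spread lay between tumours, and for the mean over all members it was widest between the 2 passage 2 controls. By range, mitosis members spread more with current RANK-Fc (0.51) than in these controls (0.42). G1 members spread more with prior RANK-Fc (0.39) than in these controls (0.28). Control replicate 1 of passage 2 had the lowest member mean of the 16 tumours, at 10.46, and control replicate 2 lay at 10.86, level with current replicate 1 at the top. Current replicate 3 and prior and current replicate 2 lay low, both at 10.49. The other tumours with current RANK-Fc or with prior and current RANK-Fc lay between 10.60 and 10.75. For mitosis members alone, the tumours with current RANK-Fc were at 10.94, 10.58 and 10.43, against 10.43 and 10.86 in passage 2 controls. Replication members followed the same tumours, with 11.04, 10.66 and 10.68 under current RANK-Fc against 10.58 and 11.03 in controls. G1 members did not set these tumours apart as far, with 10.52, 10.57 and 10.32 under current RANK-Fc against 10.34 and 10.63 in controls.

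Markers of other cells moved with some of these tumours. The mean over 10 fibroblast markers was 12.11 in current replicate 3, where member means were low, and 10.35 in current replicate 1, where they were high. In passage 2 controls it was 10.41 in replicate 1 and 9.81 in replicate 2. The range over the 16 tumours was 9.81 to 12.11. The mean over 7 macrophage markers was 11.56 and 10.32 in current replicates 3 and 1, and 10.98 and 10.59 in control replicates 1 and 2. Prior and current replicate 2, whose member mean of 10.49 was also low, did not have high values of these markers. In its group the fibroblast mean ran from 9.97 to 10.40 and the macrophage mean from 10.22 to 10.46. The mean over the 12 mammary epithelial markers stayed between 12.23 and 12.56 in all tumours. Their part in the spread of cell cycle transcripts was not tested.

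**Figure D2:**
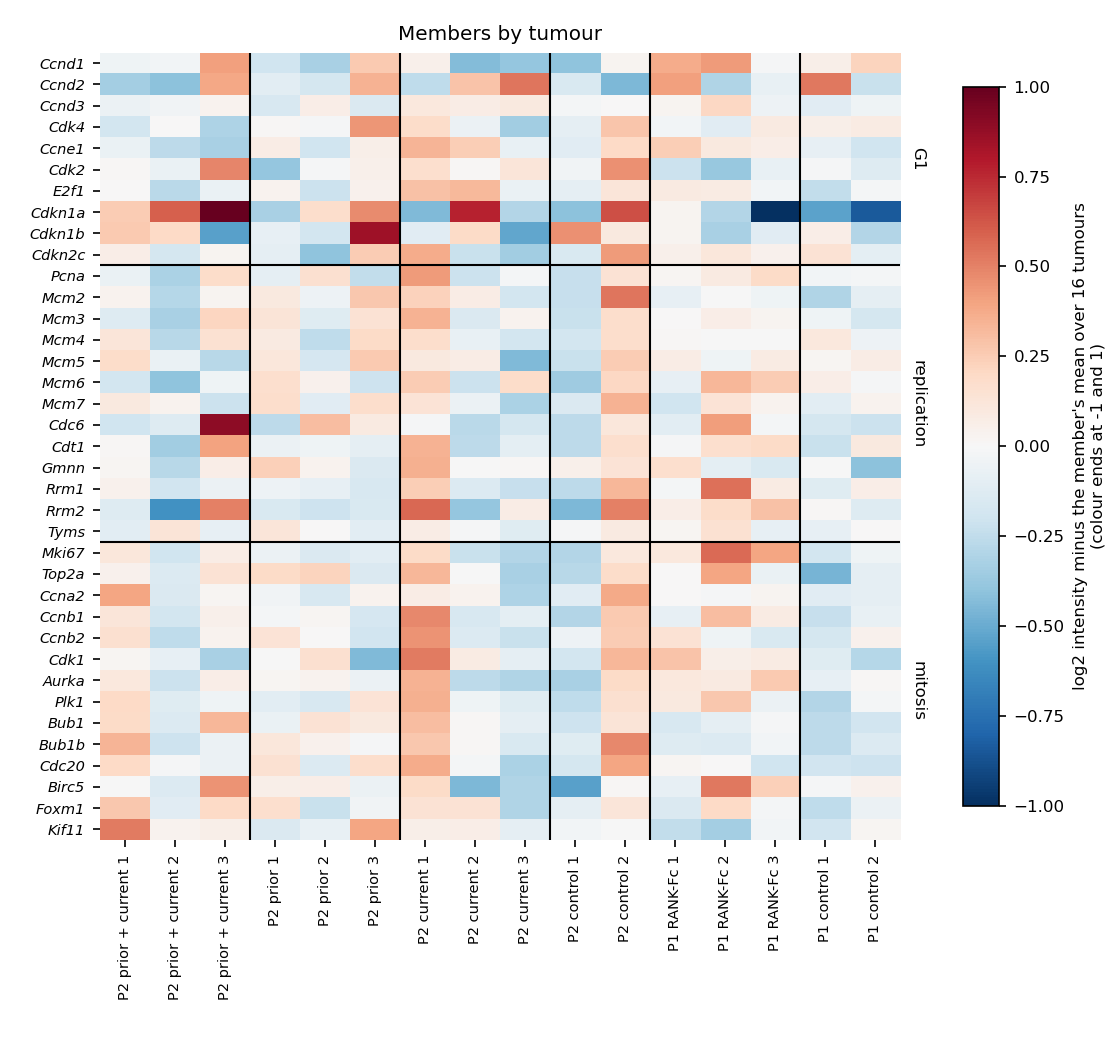
Each row is a member, ordered as G1, replication and mitosis, and each column a tumour (P2 passage 2, P1 passage 1); colour is the log2 intensity minus that member's mean over the 16 tumours, with the colour scale ending at -1 and 1. Current replicate 1 and control replicate 2 of passage 2 are red in most replication and mitosis rows, and control replicate 1 is blue in most.

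Replication and mitosis members rose and fell together from tumour to tumour. Over the 16 tumours, with the mean of each dye removed, the median Pearson correlation was 0.54 over the 91 pairs of mitosis members, 0.41 over the 78 pairs of replication members and 0.45 over the 182 pairs with 1 gene from each. It was 0.07 over the 45 pairs of G1 members and 0.01 over all pairs of the 14117 genes with a value in every tumour. These are descriptions: tumours on 1 array share a hybridisation, and genes are not independent. With group means also removed, the medians were 0.66 for mitosis, 0.44 for replication and 0.30 for G1, so the genes also moved together within groups. Without current replicate 1 and control replicate 2 of passage 2, they were 0.53, 0.32 and 0.06. For the wider lists the medians were 0.47 over 703 pairs of other mitosis genes and 0.35 over 435 pairs of other replication genes.

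The closest pair was Mcm4, a helicase subunit, and Rrm2, the regulated subunit of ribonucleotide reductase, at r = 0.87 (Spearman 0.84). Mcm2 and Cdc20, the activator of the anaphase-promoting complex, followed at 0.86 (Spearman 0.86). Ccnb1, which encodes cyclin B1, followed Cdc20 at 0.85 and the mitotic kinase gene Plk1 at 0.83. Against the mean of the other mitosis members, Ccnb1 had the highest r, 0.93, followed by Cdc20 at 0.87 and Ccna2, the cyclin A2 gene, at 0.82. Kif11, the spindle motor gene, had 0.26, the lowest of the 14. Of the G1 members, Cdkn2c, the gene of the CDK4 and CDK6 inhibitor p18, had the highest r with the replication mean, 0.83, followed by Ccne1, encoding cyclin E1, at 0.62 and E2f1 at 0.55. Ccne1 and E2f1 correlated with each other at 0.84. Ccnd2, encoding cyclin D2, ran the other way from the mitosis mean, at -0.46. Against the replication mean it had only -0.10, although -0.66 against Mcm7, the lowest of all pairs. Cdc6, a helicase loading factor gene, and Tyms, the thymidylate synthase gene, had low r against the replication mean, 0.16 and 0.19.

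**Figure D3:**
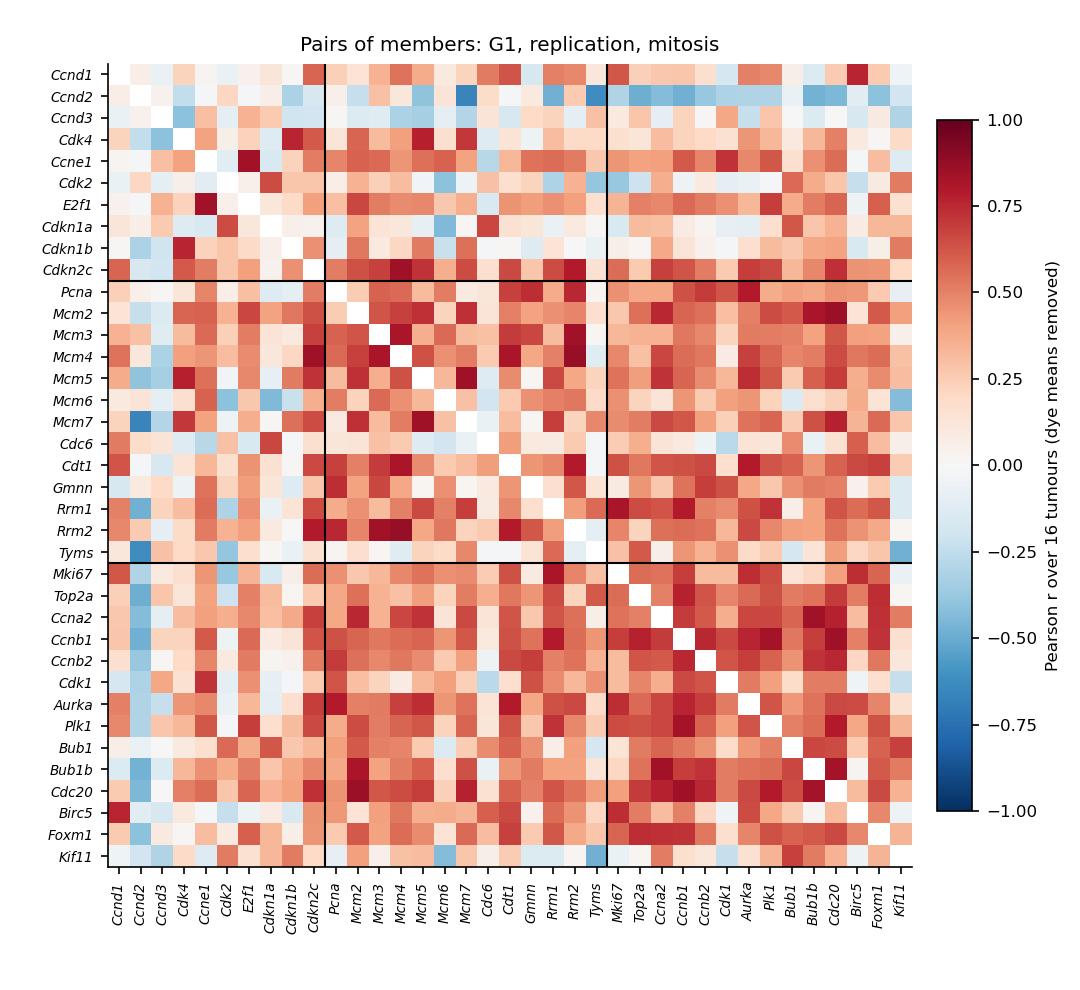
Pearson r over 16 tumours for each pair of the 37 members, in the order G1, replication, mitosis on both axes, with dye means removed and black lines between the roles. The replication and mitosis blocks are mostly red (median r 0.41 and 0.54), the G1 block is pale (0.07), and the Ccnd2 row is mostly blue.

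The first question was whether any member differed among the 6 groups. By the moderated F test of limma, 0 of 37 passed at an adjusted p under 0.05, and 0 had an unadjusted p under 0.05, whereas 4.86% and 20.6% of the 14131 genes did so. The smallest p-values were those of Mki67 with an adjusted p of 0.257, Birc5 of 0.274, Bub1 of 0.276 and Ccne1 of 0.277.

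Mki67, the gene of the proliferation marker Ki-67, had its highest group mean in passage 1 tumours with RANK-Fc. Its log2 intensity in passage 1 was 12.66, 13.12 and 12.95 with RANK-Fc, against 12.37 and 12.51 in controls. The groups did not overlap, and the difference was 0.43 ± 0.15 (SE, 1.35-fold), which did not pass over all genes (limma adjusted p = 1). In passage 2 it was 12.67, 12.36 and 12.63 with prior and current RANK-Fc, 12.50, 12.41 and 12.45 with prior RANK-Fc and 12.75, 12.33 and 12.26 with current RANK-Fc, against 12.26 and 12.66 in controls. There all groups overlapped their controls, with differences of 0.12, 0.01 and -0.05 in the order of the groups. The RANK-Fc effect was smaller in passage 2 than in passage 1 by 0.48 ± 0.21 (SE, log2 difference -0.48, adjusted p = 1). The second passing Mki67 probe gave 0.33 in passage 1 and a difference between passages of -0.36.

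In passage 1, 31 of 37 members were higher with RANK-Fc, with a median log2 difference of 0.11, beside 46.0% of all genes and a median of -0.01. None passed, as was so for all genes (0%), and 1 member had an unadjusted p under 0.05, beside 1.64% of genes. In 12 of the 37 members all 3 treated tumours lay above both controls and in 0 below, beside 16.9% of all genes whose groups did not overlap in either direction. The 12 were Ccne1, Pcna, Mcm2, Mcm3, Cdc6, Rrm2, Mki67, Top2a, Ccna2, Cdk1, Aurka and Bub1. By role, 12 of 13 replication members were higher (median 0.08), 12 of 14 mitosis members (0.14) and 7 of 10 G1 members (0.08). Of wider lists, 31 of 38 other mitosis genes (median 0.08) and 21 of 30 other replication genes (0.10) were higher, and none passed. Without control replicate 2, 25 of 37 were higher (median 0.07), and by log ratios within arrays alone 22 of 37 (0.05). In the same comparison 9 of 10 fibroblast and 8 of 8 T and NK cell markers were lower with RANK-Fc, with medians of -0.32 and -0.24. Their part in the result was not tested.

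Top2a, the gene of DNA topoisomerase II alpha, followed Mki67 at 0.30 ± 0.18 (SE, adjusted p = 1), with 9.90, 10.29 and 9.83 with RANK-Fc, against 9.43 and 9.81 in controls. Cdk1, the mitotic kinase gene, was also 0.30 higher (SE 0.20), with 10.35, 10.12 and 10.14 with RANK-Fc, against 9.94 and 9.78 in controls. In both genes the treated tumours lay above the controls. Ccne1 had the second smallest p, at 0.29 ± 0.13 (SE, adjusted p = 1), with 10.40, 10.25 and 10.22 with RANK-Fc, against 10.07 and 9.95 in controls. Its second, dimmer probe gave 0.11. On the lower side stood Cdk2, the partner kinase of cyclin E, at -0.18 ± 0.15, with 8.05, 7.89 and 8.19 with RANK-Fc, against 8.25 and 8.14 in controls. Cdk4 was at -0.08 ± 0.18, with 13.45, 13.37 and 13.57 with RANK-Fc, against 13.54 and 13.56 in controls. Ccnd2 was at -0.12 ± 0.30, with 8.97, 8.26 and 8.49 with RANK-Fc, against 9.09 and 8.34 in controls. These last 3 overlapped between the groups.

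In passage 2, each treatment was compared with the same 2 controls, so the 3 comparisons are not independent of each other. Current RANK-Fc left 15 members higher and 22 lower, with a median of -0.05, beside 0.02 for all genes. Prior RANK-Fc left 17 higher and 20 lower, with a median of -0.01, and prior and current RANK-Fc left 16 higher and 21 lower, with a median of -0.03, both beside 0 for all genes. No member passed in any of the 3, where 0%, 0.00708% and 0.0849% of all genes did. With current, prior, and prior and current RANK-Fc, 0, 0 and 1 members had an unadjusted p under 0.05, beside 4.05%, 7.71% and 9.12% of genes. Groups did not overlap in 1, 0 and 1 members, beside 13.2%, 22.3% and 19.9% of genes. The directions rest on which control is used. Without control replicate 2, 34, 34 and 32 members were higher with current, prior, and prior and current RANK-Fc, with medians of 0.13, 0.14 and 0.15. Without control replicate 1, the members higher were 5, 6 and 12 in the same order, with medians of -0.15, -0.19 and -0.23.

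Top2a read 9.94, 9.76 and 10.04 with prior and current RANK-Fc, 10.09, 10.12 and 9.75 with prior RANK-Fc and 10.23, 9.89 and 9.57 with current RANK-Fc, against 9.62 and 10.08 in controls in passage 2. Mcm2 read 9.89, 9.57 and 9.88 with prior and current RANK-Fc, 9.95, 9.80 and 10.12 with prior RANK-Fc and 10.08, 9.93 and 9.67 with current RANK-Fc, against 9.62 and 10.39 in controls. In passage 1 Mcm2 read 9.77, 9.85 and 9.81 with RANK-Fc, against 9.55 and 9.76 in controls. In both genes control replicate 2 of passage 2 lay near or above the top of the treated tumours and control replicate 1 near the bottom. Cdk1 read 10.08, 9.98 and 9.74 with prior and current RANK-Fc, 10.06, 10.22 and 9.62 with prior RANK-Fc and 10.58, 10.14 and 9.97 with current RANK-Fc, against 9.88 and 10.39 in controls. Its highest tumour was current replicate 1 and its lowest prior replicate 3. Mcm7, another helicase subunit gene, read 12.33, 12.27 and 12.02 with prior and current RANK-Fc, 12.41, 12.12 and 12.41 with prior RANK-Fc and 12.37, 12.18 and 11.92 with current RANK-Fc, against 12.09 and 12.58 in controls. Cdkn2c read 8.94, 8.70 and 8.90 with prior and current RANK-Fc, 8.79, 8.47 and 9.13 with prior RANK-Fc and 9.25, 8.65 and 8.53 with current RANK-Fc, against 8.72 and 9.30 in controls. Both had their highest value in control replicate 2, and their differences with current RANK-Fc were -0.21 and -0.28, without passing.

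E2f1 was 0.17 ± 0.13 higher with current RANK-Fc, with 9.44, 9.47 and 9.08 against 9.06 and 9.27 in controls. Ccnd3, encoding cyclin D3, was the 1 member of the 37 whose groups did not overlap there, with 12.56, 12.53 and 12.55 against 12.43 and 12.46, a difference of 0.10 ± 0.09. The other passing Ccnd3 probe, which was dimmer, gave 0 there. Ccnd3 was also one of the steadiest members, with a range of 0.37 over the 16 tumours. Ccnd2 had the largest difference with current RANK-Fc, 0.53 ± 0.30 (SE, adjusted p = 1), with 8.22, 8.15 and 8.95 with prior and current RANK-Fc, 8.46, 8.39 and 8.91 with prior RANK-Fc and 8.31, 8.85 and 9.10 with current RANK-Fc, against 8.41 and 8.11 in controls. Tumours with prior and current RANK-Fc alone ran from 8.15 to 8.95, and in passage 1 the difference was -0.12. Cdkn1b, the gene of the CDK inhibitor p27, was -0.35 ± 0.22 with current RANK-Fc and -0.42 ± 0.23 with prior and current RANK-Fc. It read 10.90, 10.84 and 10.10 with prior and current RANK-Fc, 10.56, 10.46 and 11.49 with prior RANK-Fc and 10.53, 10.83 and 10.12 with current RANK-Fc, against 11.10 and 10.74 in controls. Prior replicate 3 was the highest of the 16 tumours at 11.49, and the groups overlapped. In passage 1 Cdkn1b read 10.67, 10.32 and 10.53 with RANK-Fc, against 10.71 and 10.35 in controls.

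**Figure D4:**
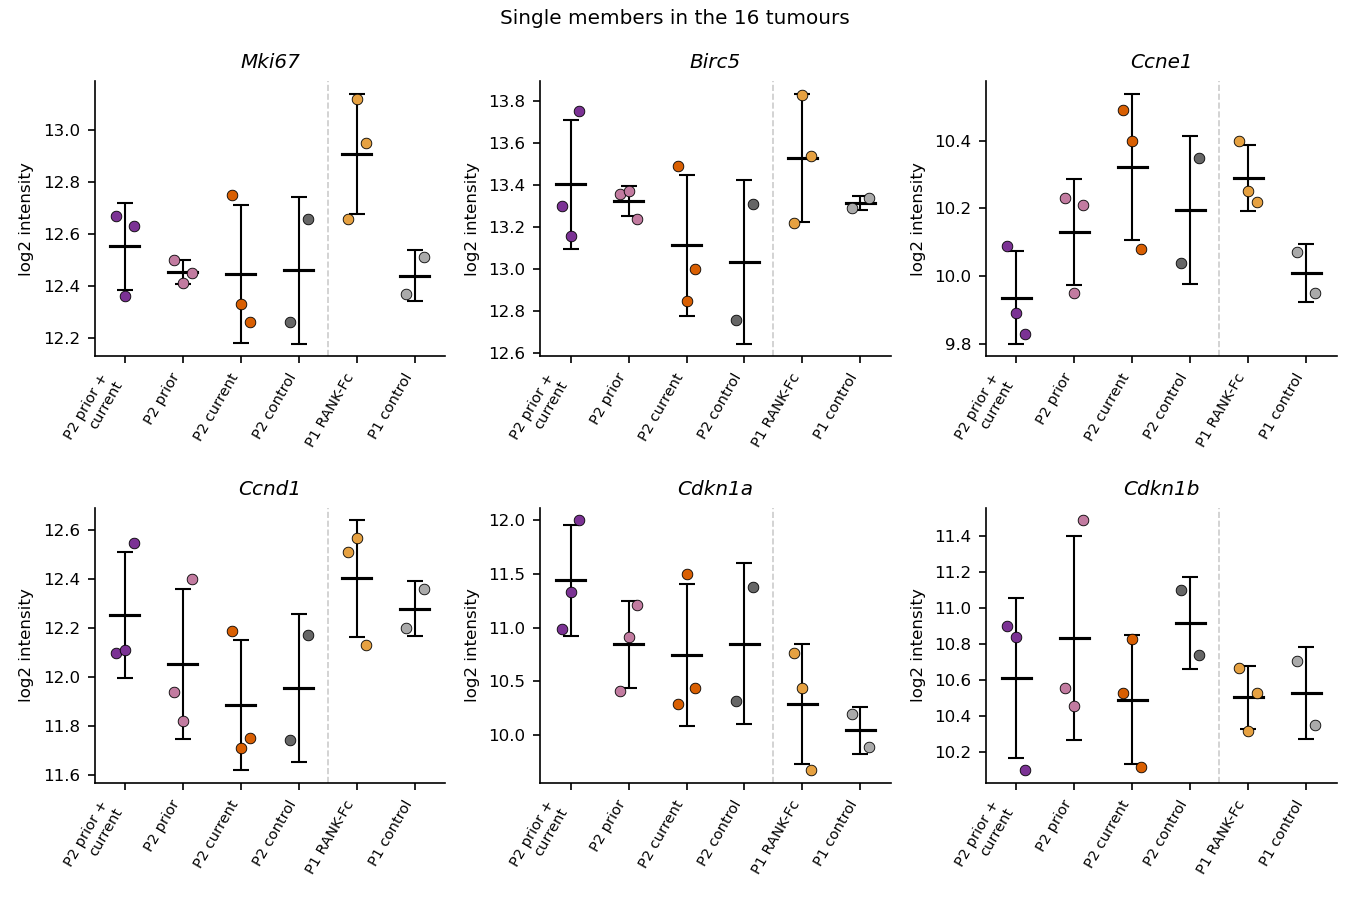
Log2 intensity of 6 members in the 16 tumours, with a point for each tumour, a bar for the group mean and whiskers for the SD (n = 3, or 2 in controls). P2 is passage 2 and P1 passage 1; each panel has its own y axis, which does not start at 0. The 3 Mki67 points with RANK-Fc in passage 1 lie above both of their controls, and Cdkn1a is highest with prior and current RANK-Fc.

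Averaged over the 3 backgrounds, current RANK-Fc moved no member past the threshold. Of 37 members, 23 were higher and 14 lower, with a median of 0.03, beside 51.9% higher and a median of 0 for all genes. Without control replicate 2 of passage 2, 34 were higher, and without replicate 1, 18. Across the list, 0 passed and 0 had an unadjusted p under 0.05, beside 0% and 6.83% of genes. By p-value, Mki67 came first on the higher side at 0.17 ± 0.08 (SE, adjusted p = 0.759), followed by Ccnd3 at 0.10 ± 0.05 and Bub1, a spindle checkpoint kinase gene, at 0.10 ± 0.07, while Cdkn1a had the largest difference, 0.25 ± 0.24. On the lower side, also by p-value, stood Cdk4 at -0.21 ± 0.10 (adjusted p = 0.738), Cdkn1b at -0.17 ± 0.13 and Mcm7 at -0.11 ± 0.10. The other 2 Cdk4 probes both gave -0.28, and the dimmer Ccnd3 probe gave 0.01. The 95% intervals of all 37 members lay within 1 log2 unit of 0, and those of 36 within 0.5. The remaining one was Cdkn1a. The widest bound was 0.77. Ccnd1, encoding cyclin D1, was at 0.03 on average, 0.04 in passage 1 and -0.15 with current RANK-Fc in passage 2, without passing. Leaving out 1 tumour took its average to between -0.02 and 0.10, and by log ratios within arrays alone it was -0.07. In passage 2, Cdk4 read 13.30, 13.48 and 13.17 with prior and current RANK-Fc, 13.49, 13.47 and 13.92 with prior RANK-Fc and 13.66, 13.42 and 13.13 with current RANK-Fc, against 13.39 and 13.76 in controls, with the lowest value in current replicate 3.

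Prior RANK-Fc was averaged over passage 2 tumours without and with current treatment. Again 0 of 37 members passed, beside 0.368% of genes, and 3 had an unadjusted p under 0.05, beside 15.6%. With 18 members higher and 19 lower, the median was 0, while 8 were higher without control replicate 1 of passage 2 and 29 without control replicate 2. Birc5, the gene of survivin, a subunit of the chromosomal passenger complex and an inhibitor of apoptosis, had the smallest p of any member in a treatment comparison. It read 13.30, 13.16 and 13.75 with prior and current RANK-Fc, 13.36, 13.37 and 13.24 with prior RANK-Fc and 13.49, 12.85 and 13 with current RANK-Fc, against 12.76 and 13.31 in controls. The difference with prior RANK-Fc was 0.36 ± 0.11 (SE, 1.29-fold, adjusted p = 0.156), and with prior and current RANK-Fc against controls it was 0.43 ± 0.16 (adjusted p = 0.446). The other 2 Birc5 probes gave 0.38 and 0.32 for the average. The tumours with prior RANK-Fc overlapped the controls, whose replicates differed by more than the effect.

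Cdc6 was 0.32 ± 0.14 higher with prior RANK-Fc (adjusted p = 0.303). It read 7.45, 7.52 and 8.54 with prior and current RANK-Fc, 7.39, 7.96 and 7.74 with prior RANK-Fc and 7.64, 7.38 and 7.47 with current RANK-Fc, against 7.39 and 7.76 in controls, and prior and current replicate 3 stood alone at the top. Ccne1 was 0.23 lower (log2 difference -0.23 ± 0.09, adjusted p = 0.262), with 10.09, 9.89 and 9.83 with prior and current RANK-Fc, 10.23, 9.95 and 10.21 with prior RANK-Fc and 10.49, 10.40 and 10.08 with current RANK-Fc, against 10.04 and 10.35 in controls. Its dimmer probe gave -0.06. E2f1 was at -0.19 ± 0.09, with 9.15, 8.88 and 9.08 with prior and current RANK-Fc and 9.18, 8.93 and 9.19 with prior RANK-Fc, against 9.44, 9.47 and 9.08 with current RANK-Fc and 9.06 and 9.27 in controls. Ccnd1 was at 0.24 ± 0.14 and Ccnd3 at -0.07 ± 0.07, where the dimmer Ccnd3 probe gave 0.02. For prior RANK-Fc alone against controls, Cdk2 was at -0.28 ± 0.15 and Ccna2 at -0.16 ± 0.16, with 11.11, 10.98 and 11.18 with prior RANK-Fc against 11.03 and 11.52 in controls for Ccna2. Without control replicate 2, Ccna2 turned to 0.08, and leaving out 1 tumour took Cdk2 to between -0.48 and -0.13. Bub1 was at 0.13 ± 0.13 with prior RANK-Fc alone, with 8.47, 8.68 and 8.64 against 8.33 and 8.67.

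Cdkn1a, the gene of the CDK inhibitor p21 and a p53 target, varied most of all members, over 2.33 log2 units, and its SD within groups was 0.49, beside a median of 0.198 over the members and 0.174 over all genes. In passage 2 it read 10.99, 11.33 and 12.00 with prior and current RANK-Fc, 10.41, 10.91 and 11.21 with prior RANK-Fc and 10.29, 11.50 and 10.44 with current RANK-Fc, against 10.32 and 11.38 in controls. In passage 1 it read 10.76, 10.44 and 9.67 with RANK-Fc, against 10.20 and 9.89 in controls. It was 0.69 higher with prior and current RANK-Fc than in controls, where control replicate 2 overlapped the treated tumours, and 0.41 higher with prior RANK-Fc on average (95% interval up to 1.06). Neither passed. Without control replicate 1 the 0.69 was 0.03, without control replicate 2 it was 1.27, and without prior and current replicate 3 it was 0.32. The second, dimmer Cdkn1a probe gave 0.76 and 0.33. Leaving out 1 tumour took the average of 0.41 to between -0.01 and 0.63. Of 13 other p53 target genes tested, 8 were higher with prior RANK-Fc (median 0.04) and none passed. The mean over these 13 ran from 10.13 to 10.64 with prior and current RANK-Fc, against 10.13 to 10.36 in passage 2 controls. The 10.64 was the highest of the 16 tumours. Whether these genes moved with Cdkn1a was not tested.

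More genes passed between passages than in any treatment comparison, but no member did. Passage 2 was set against passage 1 as the average over controls and tumours with current RANK-Fc, and 12% of all genes passed while 0 of 37 members did. At an unadjusted p under 0.05 there were 4 members, or 10.8%, beside 26.6% of genes. Of the members 25 were higher and 12 lower in passage 2, with a median of 0.06, and without control replicate 2 of passage 2 there were 17 higher and 20 lower. Ccnd1 came nearest to the threshold, at -0.43 ± 0.15 (SE, 0.742-fold, adjusted p = 0.0844). It read 12.19, 11.71 and 11.75 with current RANK-Fc and 11.74 and 12.17 in controls of passage 2, against 12.51, 12.57 and 12.13 with RANK-Fc and 12.20 and 12.36 in controls of passage 1. With prior treatment in passage 2 it read 12.10, 12.11 and 12.55 together with current RANK-Fc and 11.94, 11.82 and 12.40 without it. Current replicate 1 and control replicate 2 of passage 2 lay above the lowest passage 1 tumour at 12.13, and the other 3 lay below all of them. Without prior replicate 3, which is in neither group compared, Ccnd1 was at -0.44 with an adjusted p of 0.0495.

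Birc5 was at -0.31 ± 0.12 in passage 2 (adjusted p = 0.114), and in passage 1 it read 13.22, 13.83 and 13.54 with RANK-Fc, against 13.29 and 13.34 in controls. The other 2 Birc5 probes gave smaller differences, -0.17 and -0.19. For the brightest Birc5 probe the adjusted p was 0.0409 without current replicate 1 of passage 2. By p-value, the first on the higher side were Cdk2 at 0.29 ± 0.11 (adjusted p = 0.124), Bub1b, the gene of the checkpoint protein BUBR1, at 0.29 ± 0.13 (0.169) and Bub1 at 0.19 ± 0.09 (0.223). Cdk2 read 8.43, 8.28 and 8.39 with current RANK-Fc and 8.23 and 8.72 in controls of passage 2, all but 1 above the highest passage 1 tumour at 8.25. Bub1b read 9.61, 9.35 and 9.19 with current RANK-Fc and 9.22 and 9.82 in controls of passage 2, against 9.21, 9.20 and 9.31 with RANK-Fc and 9.08 and 9.20 in controls of passage 1. Bub1 read 8.85, 8.55 and 8.45 with current RANK-Fc and 8.33 and 8.67 in controls of passage 2, against 8.38, 8.45 and 8.53 with RANK-Fc and 8.28 and 8.35 in controls of passage 1. Cdkn1a was at 0.45 with a 95% interval that included 0, and by log ratios within arrays alone it turned to -0.43.

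Between the controls alone, 32 of 37 members were higher in passage 2, with a median of 0.15, and 0 passed, beside 3.32% of genes. One member, Bub1b, had an unadjusted p under 0.05, beside 15.5% of genes. Groups did not overlap in 7 members, beside 47.9% of genes: Ccnd3, Cdkn1a, Cdkn1b, Gmnn, Bub1b and Cdc20 were above and Ccnd1 below. With 2 tumours a group this rests on few values, and without control replicate 2 of passage 2 there were 15 members higher and 22 lower, with a median of -0.02. Mcm2 was at 0.38 ± 0.20, with 9.62 and 10.39 in passage 2 controls against 9.55 and 9.76 in passage 1 controls. Cdkn1b was at 0.43 ± 0.26, with 11.10 and 10.74 in passage 2 controls against 10.71 and 10.35 in passage 1 controls. Gmnn, the gene of the licensing inhibitor geminin, read 9.05 and 9.14 in passage 2 controls against 9 and 8.59 in passage 1 controls. In this comparison 9 of 10 fibroblast markers and 7 of 7 adipocyte markers were lower in passage 2, with medians of -1.22 and -1.55. Their part in the members' values was not tested.

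Of 20 other G1 and E2F genes tested, 2 passed between passages, beside 12% of all genes. Myc, a transcription factor gene that drives growth, was higher and Rb1, the retinoblastoma gene, lower in passage 2 on average. Myc was at 0.81 ± 0.12 (SE, 1.76-fold, adjusted p = 0.00136). It read 10.80, 10.36 and 10.69 with current RANK-Fc and 10.51 and 10.95 in controls of passage 2, against 9.80, 9.45 and 9.89 with RANK-Fc and 9.87 and 10.02 in controls of passage 1, with no overlap. Rb1 was at -0.59 ± 0.12 (0.664-fold, adjusted p = 0.00768). It read 10.91, 10.57 and 11.23 with current RANK-Fc and 10.88 and 10.69 in controls of passage 2, against 11.15, 11.69 and 11.43 with RANK-Fc and 11.60 and 11.40 in controls of passage 1, where current replicate 3 overlapped. Without control replicate 2 of passage 2, Rb1 was at -0.50 and did not pass. Beside the same 12%, 1 of 30 other replication genes and 1 of 12 quiescence genes passed. Gins4, a helicase cofactor gene, fell by 0.26 in passage 2 (adjusted p = 0.0290), and the quiescence gene Pik3ip1, a FOXO target and inhibitor of PI3 kinase, fell by 0.87 (adjusted p = 0.0454). Of 29 alternatives, Gins4 kept its call in 17 and Pik3ip1 in 12. None of 38 other mitosis genes and 13 p53 targets passed, although 34 of the 38 were higher (median 0.12). These 38 are correlated, and their mean overlapped between passages. It ran from 9.54 to 9.89 in controls and 9.59 to 9.98 with current RANK-Fc in passage 2. In passage 1 it ran from 9.52 to 9.56 in controls and 9.65 to 9.72 with RANK-Fc. By log ratios within arrays alone, which rest on 8 values a gene, none of Myc, Rb1, Gins4 and Pik3ip1 passed. Between the controls alone Myc was at 0.75 ± 0.19 (adjusted p = 0.0483), a call that most alternatives ended.

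**Figure D5:**
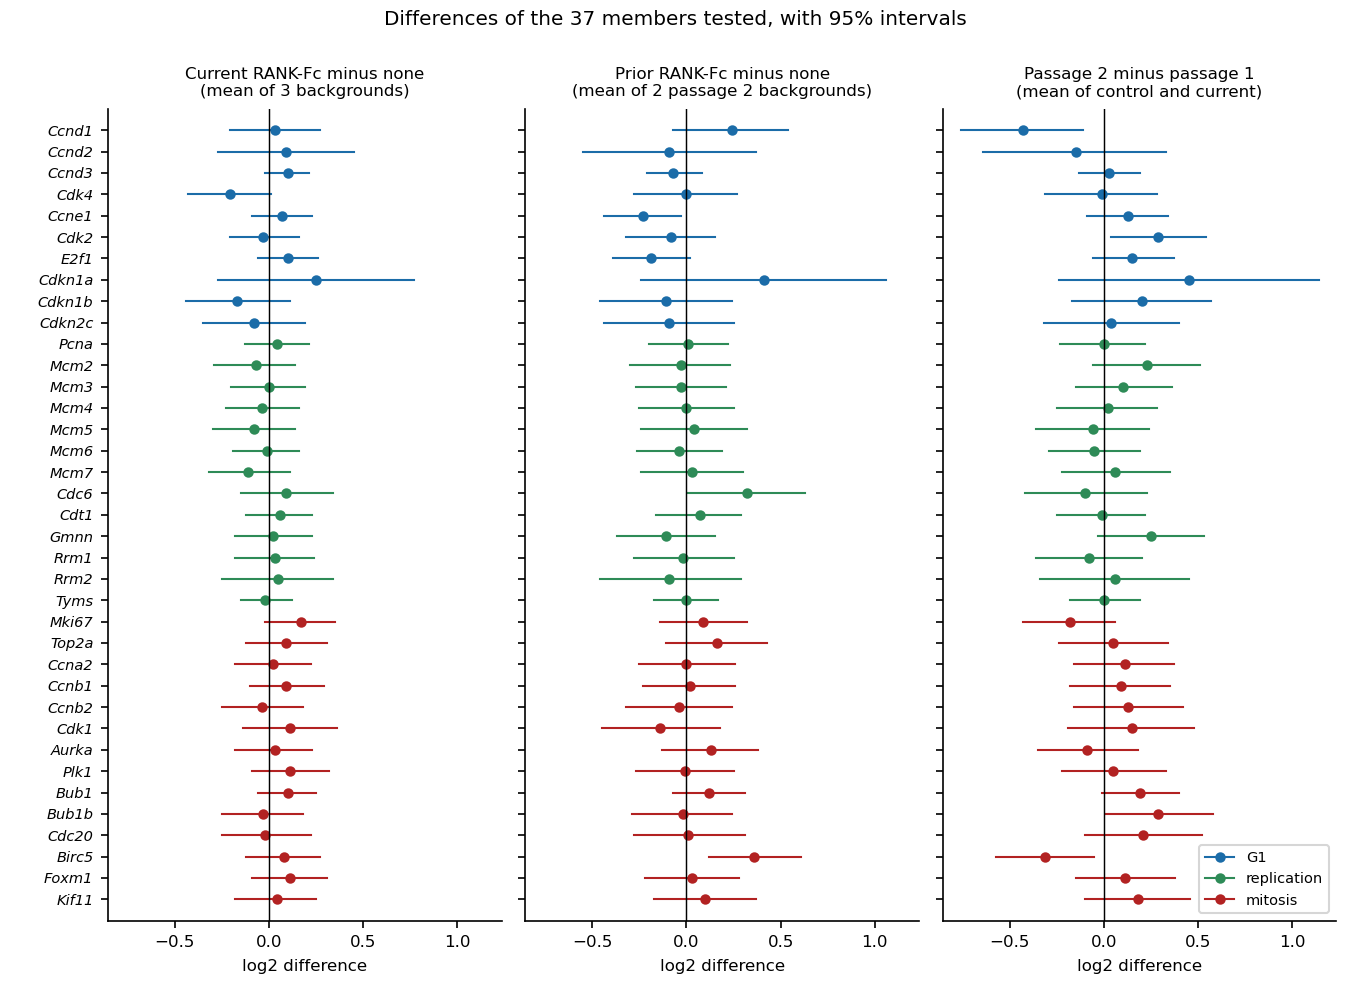
Log2 differences (x axis) of the 37 members with 95% intervals, for current RANK-Fc against none averaged over 3 backgrounds, prior RANK-Fc against none averaged over 2 passage 2 backgrounds, and passage 2 against passage 1; colours give the role. Points lie within 0.45 of 0 in all 3 panels, and Ccnd1 and Birc5 lie lowest in the passage panel.

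Prior and current RANK-Fc together were tested for departure from the sum of their single effects. Here 0 of 37 members passed, beside 0% of genes, and 0 had an unadjusted p under 0.05, beside 6.92%. The median was 0.06, with 22 members above 0, 30 without control replicate 1 and 12 without control replicate 2. Cdk2 had the smallest p, at 0.39 ± 0.20 (adjusted p = 0.740), and with both treatments read 8.28, 8.20 and 8.75, against 7.88, 8.25 and 8.32 with prior, 8.43, 8.28 and 8.39 with current RANK-Fc and 8.23 and 8.72 in controls. Ccne1 was at -0.32 ± 0.17, Ccnd2 at -0.67 ± 0.38, Ccna2 at 0.32 ± 0.21 and Ccnd1 at 0.35 ± 0.26. The dimmer Ccne1 probe gave -0.01. Mcm6 was at -0.28 ± 0.19, with 12.78, 12.56 and 12.92 with prior and current RANK-Fc, 13.13, 13.01 and 12.76 with prior RANK-Fc and 13.22, 12.75 and 13.15 with current RANK-Fc, against 12.61 and 13.17 in controls.

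The RANK-Fc effect was also compared between passages. The signed log2 difference of passage 2 minus that of passage 1 was below 0 in 33 of 37 members and above 0 in 4, with a median of -0.17. This counts direction and not size: Cdkn1b, for example, was at -0.35 in passage 2 and 0.12 in passage 1. That 0.12 is adjusted for the dye, and it ran from 0.01 to 0.26 when 1 tumour was left out. The passage 1 means of Cdkn1b without this adjustment were 10.51 with RANK-Fc and 10.53 in controls. None of the 37 members passed, beside 0% of genes, and 1 member, Mki67, had an unadjusted p under 0.05, beside 1.8%. The 4 above 0 included Ccnd2 at 0.65 ± 0.41, Kif11 at 0.06 ± 0.24 and Cdk2 at 0.03 ± 0.21. Below 0, Cdkn1b was at -0.47 ± 0.31 and Ccna2 at -0.33 ± 0.23. This count rests on 1 tumour: without control replicate 2 of passage 2, 24 members were above 0 and 13 below, with a median of 0.05.

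Kif11 read 8.54, 8.06 and 8.08 with prior and current RANK-Fc, 7.88, 7.95 and 8.42 with prior RANK-Fc and 8.08, 8.09 and 7.93 with current RANK-Fc, against 8 and 8.02 in controls in passage 2, where prior and current RANK-Fc lay above controls, and 7.78, 7.68 and 8 with RANK-Fc, against 7.83 and 8.04 in controls in passage 1. Tyms had the narrowest range of all members, 0.27, from 7.06 to 7.33. Pcna, the polymerase clamp gene, ranged from 12.30 to 13.04, Rrm1 from 11.27 to 12.08 and Rrm2 from 11.94 to 13.12. Among the licensing genes, Mcm3 ranged from 10.49 to 11.16, Mcm4 from 11.72 to 12.19, Mcm5 from 10.32 to 11.02 and Cdt1 from 10.76 to 11.51. Of the mitotic genes, Aurka ranged from 10.64 to 11.31, Plk1 from 11.51 to 12.16, Ccnb1 from 10.18 to 10.95, Ccnb2 from 11.39 to 12.09, Cdc20 from 12.08 to 12.79 and Foxm1 from 8.58 to 9.15. Of the 37 members, 32 stayed within a range of 1 log2 unit over all tumours, and the median range of 0.75 equalled that of all genes tested.

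The 3 members not tested were dim. Cdk6 was well above background in 4 tumours and read 6.10 to 6.77, Aurkb, the Aurora B kinase gene, in 1 tumour at 5.86 to 6.52, and Ccne2, the cyclin E2 gene, in none at 5.98 to 6.21. Without the filter on dim probes Cdk6 was 0.30 higher in passage 2 than in passage 1 on average (adjusted p = 0.0243), which is a difference among values near background. No fold change between groups is given for Ccne2 and Aurkb, which were below that mark in most tumours.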

How the data were processed

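RNA of 16 tumours was hybridised as pairs to 8 arrays of 2 colours on 1 slide. Per the file headers, the deposited intensity values are median spot and local background brightness read with Agilent Feature Extraction 10.7.3.1, and the processed signals are its background-subtracted, dye-normalized intensities. The deposited log10 values are, per the file headers, the ratio of red over green processed signal within an array. Quality marks of 0 or 1 were used as deposited. The 8 columns of the series' value table were not used.

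Median intensities were corrected with normexp (offset 50), normalized by loess within and Aquantile between arrays, and taken to log2; 239 to 337 outlier spots per array were left out. RefSeq accessions named 28026 of 55681 probes through a GRCm38.p6 table. limma 3.58.1 (R 4.3.3, statmod 1.5.0) fitted a mean for each of the 6 groups plus the dye, the array being a block, at a within-spot correlation of 0.23, lowered from the estimate of 0.416 for its bias; p-values were adjusted by Benjamini-Hochberg over 14131 genes, with a threshold of 0.05. All p-values are two-sided and from this model, and they measure the spread between tumours. The fit was run on data simulated from its own model, with normal errors, which cannot show how well the model holds for these tumours. Intervals are 95% intervals, and the number of arrays limits precision. Values per tumour and group means are not adjusted for the dye, while the differences are, so the means need not give the differences. Figures were drawn with matplotlib 3.10.9.

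The members and lists were chosen with earlier results of these data known. Values per tumour were given for Mki67, Ccnd1, Cdkn1a, Cdkn1b, Mcm2, Top2a, Cdk1 and the 3 members with the smallest p in each direction of each comparison; other genes of the pathway were named where they passed. Alternatives covered background, normalization, filter, probe choice, dye, correlation, variance prior, samples and each tumour left out; those of the pair correlations were chosen after seeing the data.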

Additional observations from a re-analysis of the deposited data

How the results depend on the processing

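The 10 comparisons were refitted under 13 other settings and without each of the 16 tumours. The count of members past the threshold stayed at 0 except between passages on average, where it was 1 without the filter on dim probes (Cdk6) and 0 to 1 when a tumour was left out: 1 without current replicate 1 (Birc5) and 1 without prior replicate 3 (Ccnd1) of passage 2. The cause was not tested. The median log2 difference over the members with prior RANK-Fc in passage 2 was 0.13 under median centring, where the median of all genes was 0.10. When 1 tumour was left out, it ran from -0.15 to 0.13 with current RANK-Fc in passage 2, from -0.19 to 0.14 with prior, and from -0.23 to 0.15 with prior and current RANK-Fc. It ran from -0.02 to 0.29 between the controls of passages 2 and 1, from -0.14 to 0.21 for the interaction, and from -0.33 to 0.05 for the RANK-Fc effect in passage 2 minus that in passage 1. Both ends of each range came from leaving out one or the other passage 2 control. With 2 tumours in each control group and 8 arrays, small differences are not resolved. No paired analysis was possible because the replicate numbers only follow the order of the samples and tie no tumours across groups.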
